A study of Mus musculus with 10 samples.

Results

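The 10 genes described here encode members of the BCL2 family, which decides between survival and death of a cell at the mitochondrial membrane. They were chosen by symbol, as the rows of the count table whose Ensembl identifier maps to Bcl2, Bcl2l1, Mcl1, Bak1, Bax, Bcl2l11, Bbc3, Pmaip1, Bid and Bad, and all 10 were found among 35375 features. Transcripts were counted by RNA sequencing of thymus from 10 C57BL/6J mice on day 3 after birth. The homozygous KO (n = 3) had lost both Usp7 alleles and the heterozygous KO (n = 3) a single allele, in the hematopoietic system of each animal. The wild-type group (n = 4) held, according to the series design, 2 animals with cre induction and 2 without it, and which library is which is not given. The promoter that drives the recombinase, the Usp7 exons removed and any treatment that starts the deletion are not given in the sources used here. USP7 is a deubiquitinase, an enzyme that takes ubiquitin off other proteins, and MDM2 and p53 are among the proteins it is known to act on.

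BCL2 family proteins fall into 3 roles. Survival proteins (BCL2, BCL-XL, MCL1) hold the effectors in check, the effectors (BAX, BAK) form pores in the outer mitochondrial membrane that release cytochrome c, and the BH3-only proteins (BIM, PUMA, NOXA, BID, BAD) carry death signals by binding the survival proteins or the effectors. In the thymus this balance is known to set how long double-positive thymocytes live, with BCL-XL keeping them alive and BIM removing cells whose receptor binds self too strongly. Among the BH3-only genes, Bbc3 and Pmaip1 are textbook targets of p53, as is the effector gene Bax.

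Depth differed between genotypes. The 4 wild types had 39.8 to 86.4 M counts each, the heterozygous animals 90.5 to 97.4 M and the homozygous animals 92.3 to 122 M, so that the floor of 3 counts corresponded to 0.0245 to 0.0753 CPM. CPM, the unit used below, is the count scaled to a common library total after TMM, a correction for the makeup of each library. Usp7 itself was at 303, 422 and 408 CPM in homozygous KO, against 472, 516 and 516 in heterozygous KO and 676, 670.3, 594 and 589 in wild type, in the order of the labels. Reads from Usp7 thus remained at 59.7% of the wild-type mean in homozygous KO. Double-positive thymocyte markers summed to 7217 to 7492 CPM in homozygous KO and 9062 to 10413 in wild type, and 3 of the 8 were called lower and 1 higher. Of 7 double-negative thymocyte markers, 3 were called lower and 2 higher. Other cell types moved with genotype: against wild type, 7 of 8 markers of mature single-positive thymocytes, 6 of 6 of B cells, 7 of 7 of macrophages and 5 of 6 of dendritic cells were lower in homozygous KO, whereas 6 of 8 of neutrophils and 4 of 6 of fibroblasts were higher. Xist was above 100 CPM in 3 of 4 wild-type, 1 of 3 homozygous KO and 0 of 3 heterozygous KO libraries, so the sexes were unevenly spread. Animal numbers in the titles ran from 44 to 51 and from 56 to 63. The lower numbers held 3 wild types and 1 animal of each KO, the higher numbers 1 wild type and 2 of each KO.

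Ranked by level within the wild-type thymus, the survival genes Mcl1 and Bcl2l1 led, whereas the survival gene Bcl2 was among the lowest 3 members. These levels are in CPM per kilobase of annotated exon, which allows genes of unlike length to be set side by side. Mcl1 stood first at 98.1 ± 16.5 CPM per kilobase (SD, n = 4), followed by Bcl2l1 at 54.9 ± 4.74. Bak1 came next at 21.4 ± 1.03. Bax at 16.7 ± 0.294 and Bcl2l11 at 15.7 ± 2.37 did not differ beyond their spread. Bid followed at 13.0 ± 0.699, and each of its wild-type values lay below those of Bcl2l11. Bbc3 at 6.11 ± 1.84 and Bcl2 at 5.81 ± 0.724 also lay within each other's spread. Bad at 4.75 ± 0.170 and Pmaip1 at 2.62 ± 0.276 closed the order. The scale depends on the length taken for each gene: with the longest transcript in place of all exons, Bcl2l1 stood at 98.0 and Mcl1 at 98.1 CPM per kilobase, Bcl2l11 at 25.0 and Bad at 7.92.

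In the homozygous KO the order was rearranged below its top. Mcl1 (96.4 ± 15.7 CPM per kilobase, SD, n = 3) and Bcl2l1 (69.8 ± 2.35) kept the leading places, and Bax followed at 42.7 ± 4.63. Bbc3 reached 29.6 ± 11.7, a level whose spread took in Bak1 at 22.2 ± 1.14, Bcl2l11 at 20.5 ± 3.01 and Bid at 19.0 ± 1.35. Pmaip1, last in wild type, stood at 18.0 ± 1.59, above Bad at 5.73 ± 0.203 and Bcl2 at 5.05 ± 1.01. In heterozygous KO the values were close to wild type for most members, with Mcl1 at 106 ± 21.2 and Pmaip1 last at 4.22 ± 1.07.

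**Figure D1:**
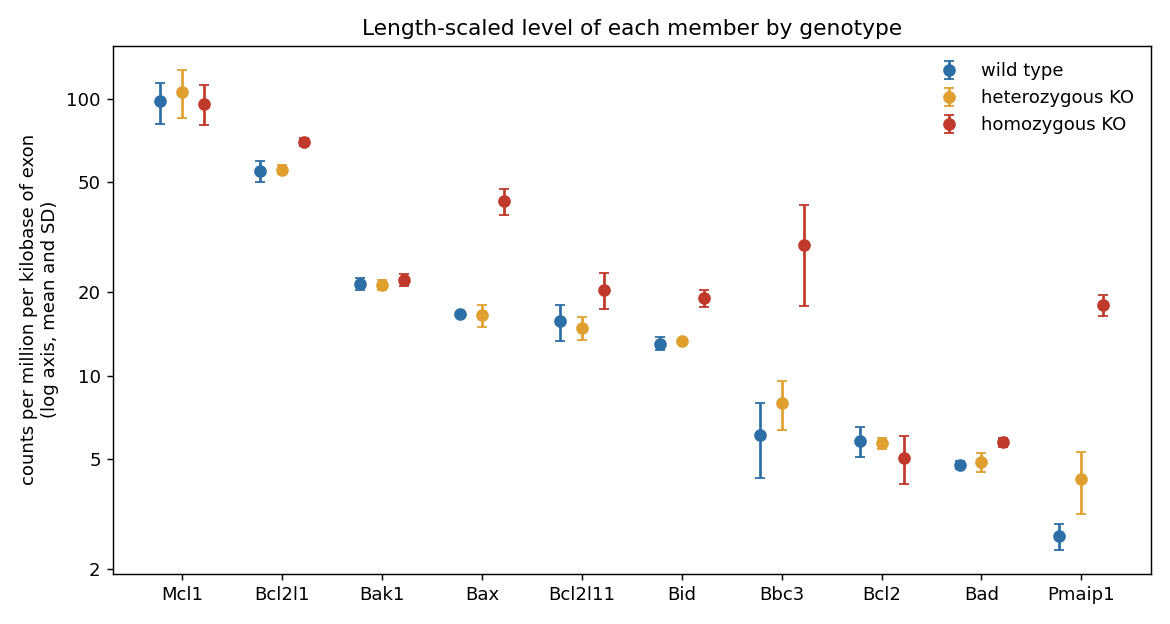
Mean level of each member in CPM per kilobase of exon (log axis) with the SD over the libraries of each genotype (wild type n = 4, heterozygous KO n = 3, homozygous KO n = 3), ordered by the wild-type level. The red homozygous KO points of Bax, Bbc3, Bid and Pmaip1 lie clear of the other groups, as do, by less, those of Bcl2l1 and Bad. For Mcl1, Bak1 and Bcl2 the SD bars of the genotypes overlap.

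Homozygous KO was first compared with wild type, to ask which members move when both Usp7 alleles are lost. Higher transcript levels were found for 7 of the 10 members (adjusted p under 0.05, edgeR quasi-likelihood test over all genes), and no member was called lower. Among all 19511 tested genes, 25.8% were called in this comparison and 12.5% were called higher. Higher and lower calls numbered 2446 and 2584 with TMM, and 1435 and 3506 when libraries were scaled by their totals alone. The median log2 fold change was 0.36 over the 10 members and -0.01 over all tested genes. The called members were all 5 BH3-only genes, the effector gene Bax and the survival gene Bcl2l1. The homozygous KO libraries all lay above the wild-type libraries for 6 members, and 16.3% of all tested genes had the same kind of separation. In these bulk libraries a change in the number of cells of a type and a change in RNA per cell cannot be told apart.

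**Figure D2:**
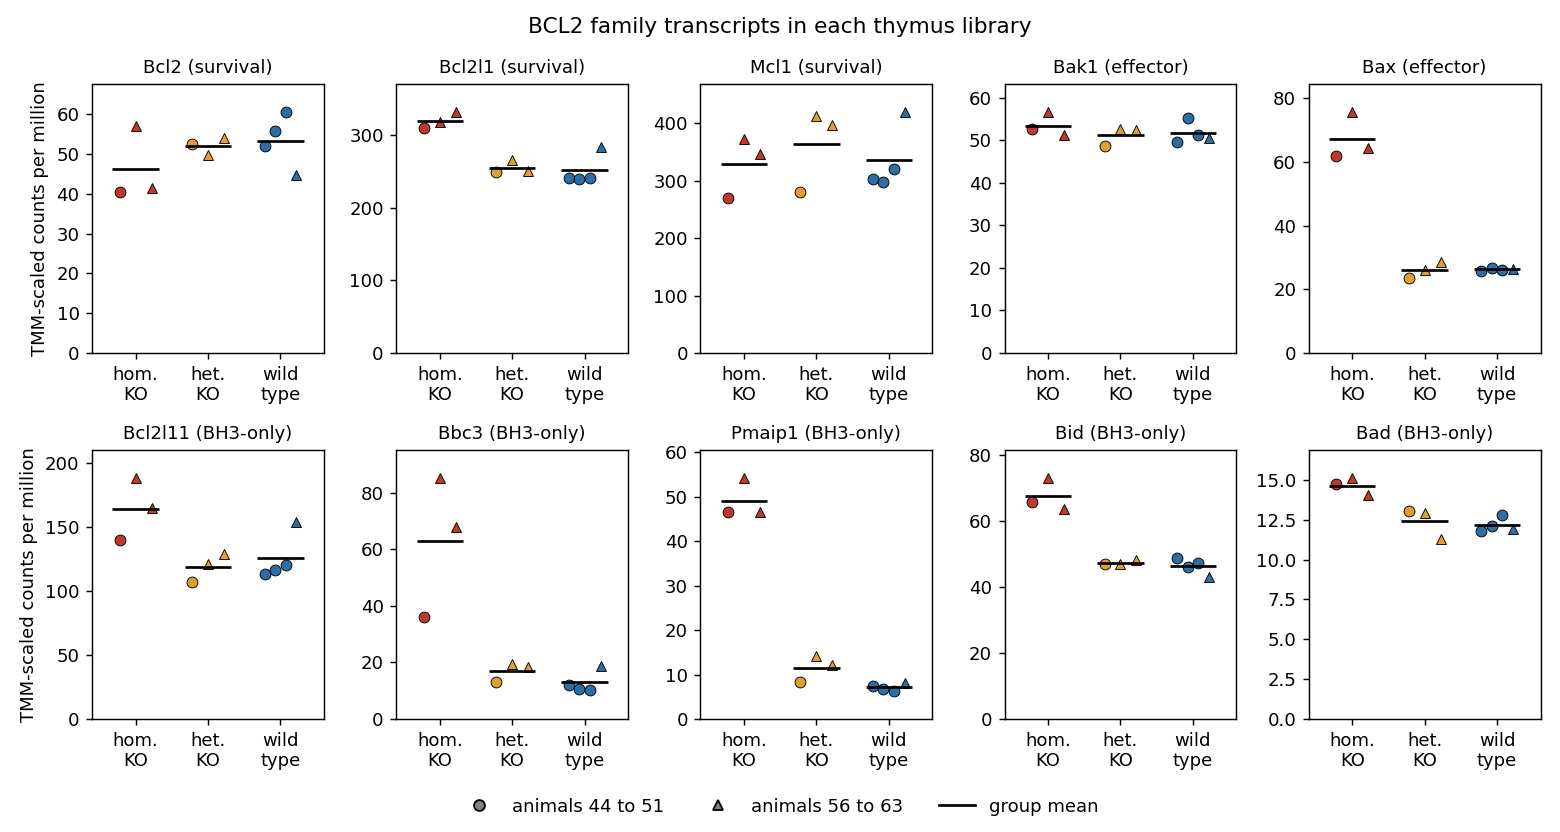
CPM of each member (y axis from 0) in each library, by genotype (x axis), with a horizontal line at the group mean, circles for animals numbered 44 to 51 and triangles for 56 to 63. Bax, Pmaip1, Bbc3 and Bid separate the homozygous KO libraries from the rest, and so do Bcl2l1 and Bad by a narrower margin. For Mcl1, Bbc3, Bcl2l1, Bcl2l11 and Pmaip1 the triangles lie above the circles in each genotype, in places by a narrow margin.

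The 3 survival genes did not move together. Bcl2l1 (ENSMUSG00000007659, chromosome 2), which encodes BCL-XL, was at 309.9, 319 and 331 CPM in homozygous KO, against 249, 266 and 251 in heterozygous KO, and 241, 240.2, 241 and 284 in wild type. The homozygous KO libraries were the highest of all 10, and the fourth wild type stood apart from the other wild types. Against wild type, Bcl2l1 was 1.27-fold higher (log2 fold change 0.35, SE 0.0655, adjusted p = 0.00285). The exact permutation test over libraries (two-sided) gave p = 0.0571, where 3 against 4 libraries allow no less than 0.0286. The call was lost when the wild types were limited to the 2 with a single wt word in their titles (log2 0.28, adjusted p = 0.0507). Within animals 44 to 51 the log2 difference from wild type was 0.36, and within animals 56 to 63 it was 0.19.

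Bcl2 (ENSMUSG00000057329, chromosome 1), the founding survival gene, was at 40.4, 56.9 and 41.4 CPM in homozygous KO, against 52.5, 49.6 and 54.1 in heterozygous KO, and 52.0, 55.8, 60.4 and 44.7 in wild type. The second homozygous KO library exceeded 3 of the wild types, so the groups overlapped although the other KO libraries were the lowest. The log2 fold change was -0.20 (SE 0.127, 95% interval -0.48 to 0.08, adjusted p = 0.275). Without the second homozygous KO library it was -0.37 and passed the threshold (adjusted p = 0.0321). Within animals 44 to 51 the difference was -0.47, and within animals 56 to 63 it was 0.12 on the log2 scale.

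Mcl1 (ENSMUSG00000038612, chromosome 3), whose short-lived protein guards thymocytes at several stages, was at 269, 373 and 347 CPM in homozygous KO, against 281, 413 and 398 in heterozygous KO, and 303, 299, 321 and 419 in wild type. The groups overlapped fully (log2 fold change -0.03, SE 0.161, 95% interval -0.38 to 0.33, adjusted p = 0.925). Within each genotype the animals numbered 56 to 63 were higher than those numbered 44 to 51, by 0.42, 0.53 and 0.45 on the log2 scale in homozygous KO, heterozygous KO and wild type. A fit with a term for the animal number gave -0.22 (adjusted p = 0.00912), and the differences within the lower and the higher numbers were -0.19 and -0.22. Whether Mcl1 was called therefore depended on that term, and what the animal numbers stand for is not given.

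The 2 effectors behaved differently. Bax (ENSMUSG00000003873, chromosome 7) was at 61.8, 75.6 and 64.4 CPM in homozygous KO, against 23.7, 26.1 and 28.4 in heterozygous KO, and 25.7, 26.9, 26.2 and 26.3 in wild type. The homozygous KO libraries were well apart from all others, and the other groups coincided. Bax was 2.56-fold higher in homozygous KO (log2 fold change 1.36, SE 0.0826, adjusted p = 1.79e-06, exact permutation p = 0.0286, the smallest this design allows). Within animals 44 to 51 the log2 difference was 1.24 and within animals 56 to 63 it was 1.41.

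Bak1 (ENSMUSG00000057789, chromosome 17), the other pore-forming gene, was at 52.6, 56.5 and 51.2 CPM in homozygous KO, against 48.7, 52.6 and 52.3 in heterozygous KO, and 49.5, 55.2, 51.2 and 50.5 in wild type. All 3 groups overlapped. The log2 fold change against wild type was 0.05 (SE 0.0613, 95% interval -0.08 to 0.18, adjusted p = 0.591). Scaling by library totals alone turned it to -0.044, a scaling under which the median of all genes moved to -0.11.

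The stretch before the start of Bax and of Bak1 is shown because these effectors differed most plainly, with Bbc3 added as a strongly called BH3-only gene. The sequences come from RefSeq (GRCm38.p6), where 9 of the 10 members had 15 windows of 300 bases, 250 before to 50 after a start. No window was looked up for Pmaip1, whose chromosome was left out of the search, so whether it has one was not tested. The 250 bases before the start are printed 5′ to 3′, and capitals mark the E-box (CANNTG, the motif of E-proteins) and the p53 decamer (a half-site). They span chr7:45466899-45467148 (minus strand) for Bax, chr17:27028628-27028877 (minus strand) for Bak1 and chr7:16310181-16310430 (plus strand) for the third of 3 Bbc3 windows.
Bax: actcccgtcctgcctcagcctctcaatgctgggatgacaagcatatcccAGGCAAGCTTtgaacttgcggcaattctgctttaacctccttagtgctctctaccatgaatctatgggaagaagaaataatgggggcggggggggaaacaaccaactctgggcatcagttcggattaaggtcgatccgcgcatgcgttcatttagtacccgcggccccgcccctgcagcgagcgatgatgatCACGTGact
Bak1: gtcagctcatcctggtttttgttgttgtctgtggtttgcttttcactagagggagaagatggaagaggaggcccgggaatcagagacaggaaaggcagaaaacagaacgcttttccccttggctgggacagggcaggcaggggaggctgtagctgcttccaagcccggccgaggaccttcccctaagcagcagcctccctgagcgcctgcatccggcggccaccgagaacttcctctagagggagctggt
Bbc3: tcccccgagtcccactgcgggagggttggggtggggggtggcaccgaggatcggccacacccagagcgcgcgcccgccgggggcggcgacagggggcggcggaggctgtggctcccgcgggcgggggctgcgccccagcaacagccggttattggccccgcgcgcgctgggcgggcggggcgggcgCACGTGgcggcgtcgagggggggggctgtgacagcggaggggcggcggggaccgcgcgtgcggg
The Bax window held a p53 decamer 201 bases before the start and an E-box 9 bases before it. The Bbc3 stretch held an E-box 64 bases before the start, and the Bak1 stretch held neither motif. Over both strands of 32851 windows of the mouse genome, an E-box was present in 72.3%, the p53 decamer in 8.36%, AGGTCA in 16.3% and the GC box GGGCGG in 35.7%. Such shares are per window, whereas the member counts are per gene over 15 windows in all, so they are not directly comparable. Of the 9 members, 6 had an E-box in a window, 7 a GC box, 1 (Bax) the p53 decamer and 1 (Bcl2l1) AGGTCA, which there shared bases with an E-box. These are matches of letters only, and no binding was measured.

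All 5 BH3-only genes were higher in homozygous KO, over a wide range of sizes. Pmaip1 (ENSMUSG00000024521, chromosome 18), which encodes NOXA, a binder of MCL1, was at 46.5, 54.1 and 46.6 CPM in homozygous KO, against 8.36, 14.1 and 12.1 in heterozygous KO, and 7.49, 6.84, 6.29 and 8.02 in wild type. No group overlapped another, with wild type lowest and homozygous KO highest. It had the largest difference among the members, 6.86-fold (log2 2.78, SE 0.158, adjusted p = 1.24e-06, exact permutation p = 0.0286). Within animals 44 to 51 the log2 difference was 2.76, and within animals 56 to 63 it was 2.65.

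Bbc3 (ENSMUSG00000002083, chromosome 7), which encodes PUMA, was at 35.9, 85.1 and 67.8 CPM in homozygous KO, against 13.0, 19.4 and 18.4 in heterozygous KO, and 12.2, 10.7, 10.3 and 18.7 in wild type. The homozygous KO libraries were above all others but spread widely, and the lowest came from the animal with the lower number. Bbc3 was 4.84-fold higher than in wild type (log2 2.27, SE 0.285, adjusted p = 2.14e-04). Animals 56 to 63 exceeded animals 44 to 51 by 1.08, 0.54 and 0.76 on the log2 scale in homozygous KO, heterozygous KO and wild type. Within the lower and the higher numbers the homozygous KO difference was 1.70 and 2.02.

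Bid (ENSMUSG00000004446, chromosome 6), which links death receptors to mitochondria once its protein is cleaved, was at 65.9, 72.9 and 63.7 CPM in homozygous KO, against 47.01, 46.9 and 48.1 in heterozygous KO, and 48.9, 46.1, 47.2 and 43.0 in wild type. The homozygous KO libraries lay above the rest, with little spread in any group. The difference was 1.46-fold (log2 0.54, SE 0.0639, adjusted p = 1.37e-04). Bax, Pmaip1, Bbc3 and Bid stayed called in all 17 alternative settings of this comparison.

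Bcl2l11 (ENSMUSG00000027381, chromosome 2), which encodes BIM, was at 139.8, 188 and 165 CPM in homozygous KO, against 107, 121 and 129 in heterozygous KO, and 113, 116, 120.5 and 154 in wild type. The fourth wild type exceeded the lowest homozygous KO library, so these groups overlapped. Bcl2l11 was 1.30-fold higher (log2 0.38, SE 0.122, adjusted p = 0.0401), with an exact permutation p of 0.0857. Animals 56 to 63 exceeded animals 44 to 51 by 0.33, 0.22 and 0.40 on the log2 scale in homozygous KO, heterozygous KO and wild type. Within the lower and the higher numbers the homozygous KO difference from wild type was 0.26 and 0.19. The call held in 8 of 17 alternatives (adjusted p from 0.00306 to 0.293). It was lost without any of 5 libraries: homozygous KO 2 (0.152) or 3 (0.0863), or wild type 1 (0.105), 2 (0.102) or 3 (0.0862).

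Bad (ENSMUSG00000024959, chromosome 19), whose protein is held inactive by growth-factor signals, was at 14.8, 15.1 and 14.1 CPM in homozygous KO, against 13.1, 12.9 and 11.3 in heterozygous KO, and 11.8, 12.1, 12.8 and 11.9 in wild type. The homozygous KO libraries were the highest 3, by a narrow margin. The difference was 1.21-fold (log2 0.27, SE 0.0817, adjusted p = 0.0318, exact permutation p = 0.0286). The call held in 5 of 17 alternatives (adjusted p from 0.00851 to 0.184) and was lost without homozygous KO 1 (0.0703) or 2 (0.0928) or wild type 1 (0.0772), 2 (0.0717) or 4 (0.0590). With the level of Xist as a covariate, neither Bad (adjusted p = 0.0717) nor Bcl2l11 (0.0502) was called.

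**Figure D3:**
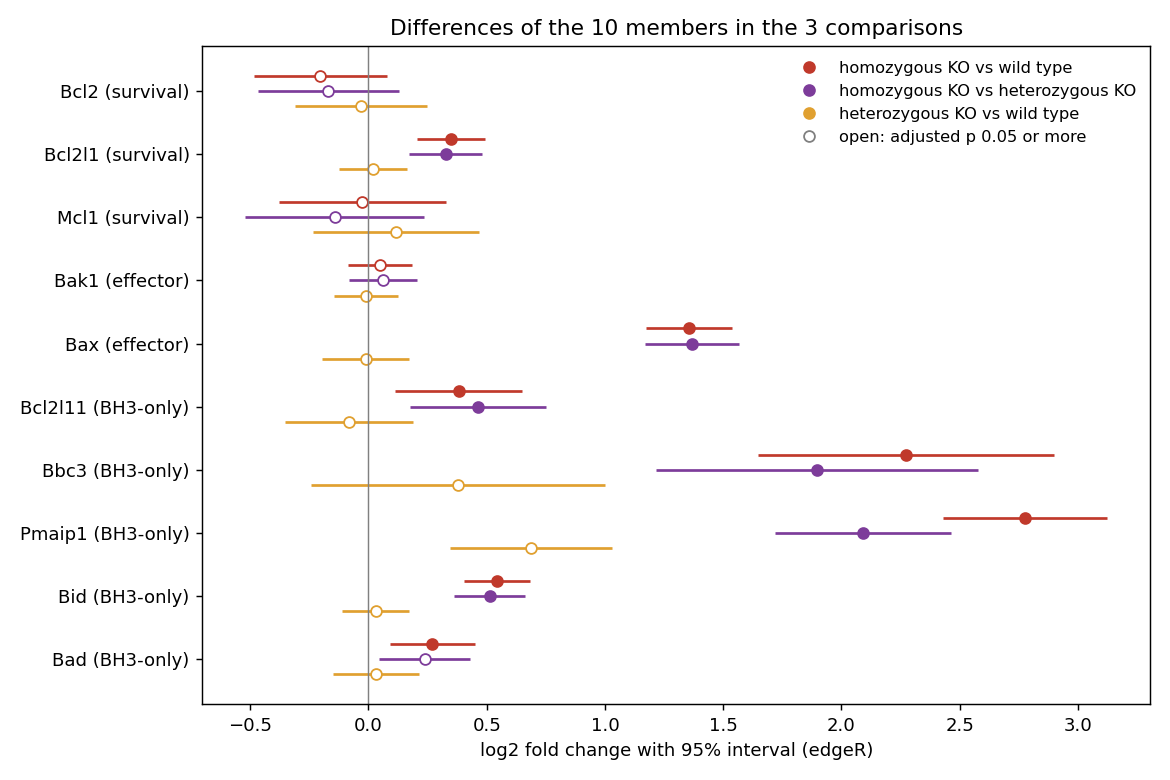
Log2 fold change (x axis) of each member with its 95% interval in the 3 comparisons, from the edgeR fit over all 10 libraries, with open circles where the adjusted p was 0.05 or more. Pmaip1, Bbc3 and Bax lie farthest to the right in both comparisons of homozygous KO, and the orange heterozygous KO intervals span 0 for each member except Pmaip1.

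The heterozygous KO was next compared with wild type, which asks whether losing a single allele is enough to move these genes. No member was called (edgeR quasi-likelihood test, adjusted p under 0.05), where 0.0154% of all tested genes were called. An unadjusted p under 0.05 was reached by 1 of the 10 members, Pmaip1, and by 1421 of all 19511 tested genes. DESeq2 called 1 member, again Pmaip1, and 58 of its 17981 tested genes. Pmaip1 was 1.61-fold higher (log2 0.69, SE 0.155, 95% interval 0.35 to 1.03), with an unadjusted edgeR p of 0.00101, an adjusted p of 0.522 and a DESeq2 adjusted p of 0.0153. All 3 heterozygous KO libraries exceeded the 4 wild types, by the least in the first (8.36 against at most 8.02 CPM). How many of all tested genes were separated in this way was not counted. Within animals 44 to 51 the log2 difference of Pmaip1 was 0.29, and within animals 56 to 63 it was 0.70. Over its alternatives the adjusted p ran from 0.0153 to 1.0.

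For the remaining members the heterozygous KO difference was small relative to its error. The widest interval was that of Bbc3 (log2 0.38, 95% interval -0.24 to 1.0), which leaves room for a rise of up to 1.0 on the log2 scale. For Bax (-0.20 to 0.17), Bid (-0.11 to 0.17), Bcl2l1 (-0.12 to 0.17), Bad (-0.15 to 0.21) and Bak1 (-0.15 to 0.12) the intervals were narrower on either side of 0. Those of Bcl2 (-0.31 to 0.25), Bcl2l11 (-0.35 to 0.19) and Mcl1 (-0.23 to 0.47) were wider.

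The 2 KO groups were then compared directly, within the fit that takes its filter, scaling and spread from all 10 libraries. Higher levels in homozygous KO were called for 6 members, Bcl2l1, Bax, Bcl2l11, Bbc3, Pmaip1 and Bid, and none was lower. Of all tested genes, 17.1% were called in this comparison and 7.63% were called higher. Scaling by totals alone changed the higher and lower calls here from 1489 and 1853 to 856 and 2330. Pmaip1 was 4.26-fold higher (log2 2.09, SE 0.169, adjusted p = 1.77e-05), Bbc3 3.72-fold (1.90, SE 0.310, 0.00167) and Bax 2.58-fold (1.37, SE 0.0900, 4.46e-06). Smaller differences were found for Bid (log2 0.51, SE 0.0687, adjusted p = 4.71e-04), Bcl2l11 (0.46, SE 0.131, 0.0327) and Bcl2l1 (0.33, SE 0.0704, 0.00852). Bad, called against wild type, missed the threshold here at log2 0.24 (adjusted p = 0.0904), although its 3 homozygous KO libraries were all above the heterozygous ones. Bcl2 (-0.17, adjusted p = 0.466), Mcl1 (-0.14, 0.650) and Bak1 (0.06, 0.602) were not called. With 3 against 3 libraries, an exact permutation test allows no p under 0.10. The Bcl2l11 call held in 7 of 14 alternatives and was lost without heterozygous KO 1 (0.119), 2 (0.0747) or 3 (0.0516) or homozygous KO 2 (0.113) or 3 (0.0745). These 2 comparisons share the homozygous KO libraries.

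Ratios of counts within a library do not depend on the scaling between libraries, and they put members that bind each other side by side. They are not corrected for length and are compared only between libraries, with no test. The count of Mcl1 over that of its binder Pmaip1 was 5.79 to 7.44 in homozygous KO, 29.3 to 33.6 in heterozygous KO and 40.5 to 52.3 in wild type. These ranges did not overlap. Bcl2 over Bcl2l11 was 0.251 to 0.303 in homozygous KO and 0.290 to 0.501 in wild type, where the lowest value was that of the fourth wild type, and 0.409 to 0.490 in heterozygous KO. Bcl2l1 over Bcl2l11 ran from 1.70 to 2.22, 1.94 to 2.32 and 1.84 to 2.13 in homozygous KO, heterozygous KO and wild type, so both genes were higher in homozygous KO without a shift of their ratio beyond the spread. Bcl2 over Bcl2l1 was 0.125 to 0.178 in homozygous KO, 0.186 to 0.216 in heterozygous KO and 0.157 to 0.250 in wild type, so that homozygous KO overlapped wild type but not heterozygous KO.

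Among the remaining BCL2 family genes the calls were all lower. Of 15 listed, 13 were in the table and 11 were tested, of which 4 were lower in homozygous KO than in wild type, where 13.2% of all tested genes were called lower, and none was higher. The list median lay within 0.001 of 0 on the log2 scale. Bmf, a BH3-only gene, was at 60.1, 65.0 and 57.9 CPM in homozygous KO and 122 to 169 in wild type (log2 fold change -1.25, SE 0.0943, adjusted p = 6.92e-06). It was thus the tested BH3-only gene that was called in the opposite direction to the 5 above. The survival gene Bcl2l2 (-1.22, adjusted p = 8.40e-04) and the scarcer Bcl2l14 (-1.74, 1.25e-04) and Bcl2a1b (-1.72, 0.00131) were also lower, and the 4 were lower than in heterozygous KO as well. Bcl2a1b, a survival gene of white blood cells, has near-identical copies, so its count is uncertain.

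The other 7 were not called against wild type. Their log2 fold changes were 0.31 for Bcl2l12, 0.41 for Bnip3, 0.04 for Bnip3l, 0.08 for Bcl2l13, 0.19 for Bcl2l15 and -0.93 for Bik (adjusted p from 0.147 to 0.781), and that of Bok was within 0.001 of 0. Bcl2l10 and Hrk were below the filter on low counts, and Bcl2a1a and Bcl2a1d were not analysed here. Markers of B cells, macrophages and dendritic cells were lower in homozygous KO too. Their summed levels were 6.37 to 8.92 against 34.2 to 55.8 CPM in wild type for B cells, 20.6 to 23.7 against 48.6 to 68.0 for macrophages and, over the dendritic cell markers other than Ccr9, 4.96 to 5.96 against 17.2 to 21.9. Ccr9, which made up nearly all of the dendritic cell sum, was not called (log2 -0.20, adjusted p = 0.0917). Their part in these lower levels was not tested.

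Steps after the mitochondrial pore were called about as often as genes in general when both directions are counted, but each call was higher. Of 19 genes listed as downstream of mitochondria, 5 were higher in homozygous KO than in wild type and none was lower. The list included genes for cytochrome c release, the apoptosome and caspases but was not limited to them. Among all tested genes, 25.8% were called in either direction and 12.5% were called higher. The list median was 0.08 on the log2 scale. Apaf1, which builds the apoptosome and is a p53 target itself, was at 182, 175 and 177 CPM in homozygous KO and 109 to 124 in wild type. Its libraries did not overlap (log2 0.59, SE 0.0536, adjusted p = 2.25e-05). The cytochrome c gene Cycs (0.24, 0.0137) and the channel gene Vdac1 (0.21, 0.00659) were higher by less, as was Parp1, named after its values were seen (0.17, 0.0218). Against heterozygous KO 1 of the 19, Apaf1, was called (0.55, 9.61e-05), beside 17.1% of all tested genes.

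On the death receptor route, 4 of 10 genes were higher in homozygous KO and 1 was lower. Among all tested genes, 12.5% were called higher and 13.2% lower. Fas, the receptor gene and also a p53 target, was higher (log2 0.39, SE 0.0771, adjusted p = 0.00374), as were the necroptosis kinase gene Ripk3 (0.29, 0.00416), the adaptor gene Tradd (0.29, 0.0442) and, named after its values were seen, the kinase gene Ripk1 (0.28, 0.0445). Cflar, an inhibitor of caspase 8, was lower (-0.30, SE 0.0739, adjusted p = 0.0115). Tradd and Ripk1 were called in 3 and 8 of 17 alternatives. The list median was 0.22.

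Most p53 targets outside the family were called higher. Of 16 genes, 11 were higher in homozygous KO than in wild type, beside 12.5% of all tested genes, and none was lower, with a list median of 0.96 on the log2 scale, and 11 were higher than in heterozygous KO. Zmat3, an RNA-binding protein gene, was at 199.8, 271 and 239 CPM in homozygous KO, against 32.1, 30.2 and 31.8 in heterozygous KO and 23.7 to 28.6 in wild type (log2 3.20 against wild type, SE 0.0993, adjusted p = 2.47e-08). Phlda3, an inhibitor of AKT (log2 3.51, SE 0.175, adjusted p = 5.10e-07), and Cdkn1a, the cell cycle inhibitor p21 (2.65, SE 0.182, 3.74e-06), were higher as well, Phlda3 by more than Pmaip1. Eda2r, a receptor gene, was at 4.37, 4.79 and 3.48 CPM in homozygous KO, whereas 3 wild types had no read and the other was at 0.0241 CPM, so no fold is given. Trp53, which encodes p53 and is named here after its values were seen, was not called (0.13, SE 0.0597, adjusted p = 0.143).

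Among regulators known to act upstream of the family, 16 were tested. None was higher and 3 were lower in homozygous KO than in wild type, a share near the 25.8% called and 13.2% called lower among all tested genes. Il7r, the receptor whose signal keeps Bcl2 transcribed in thymocytes, was at 11.7, 12.6 and 7.34 CPM in homozygous KO and 27.6 to 52.9 in wild type (log2 -1.97, SE 0.235, adjusted p = 1.54e-04). It is also a marker on the lists of mature single-positive and double-negative thymocytes. The summed mature markers were 246 to 310.2 CPM in homozygous KO and 470.5 to 644 in wild type. The summed double-negative markers were 595 to 1444 CPM in homozygous KO and 507 to 730 in wild type. Of these 7 double-negative markers, 2 were called higher and 3 lower. The part of such cell type differences in the Il7r value was not tested. Nr4a3 (-1.89, SE 0.273, 5.44e-04), a nuclear receptor gene induced by antigen receptor signals, and the glucocorticoid receptor gene Nr3c1 (-0.30, SE 0.0776, 0.0160) were the others. Of 7 tested genes for enzymes that mark MCL1 or BIM for breakdown or protect them, none was called (edgeR, adjusted p under 0.05).

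**Figure D4:**
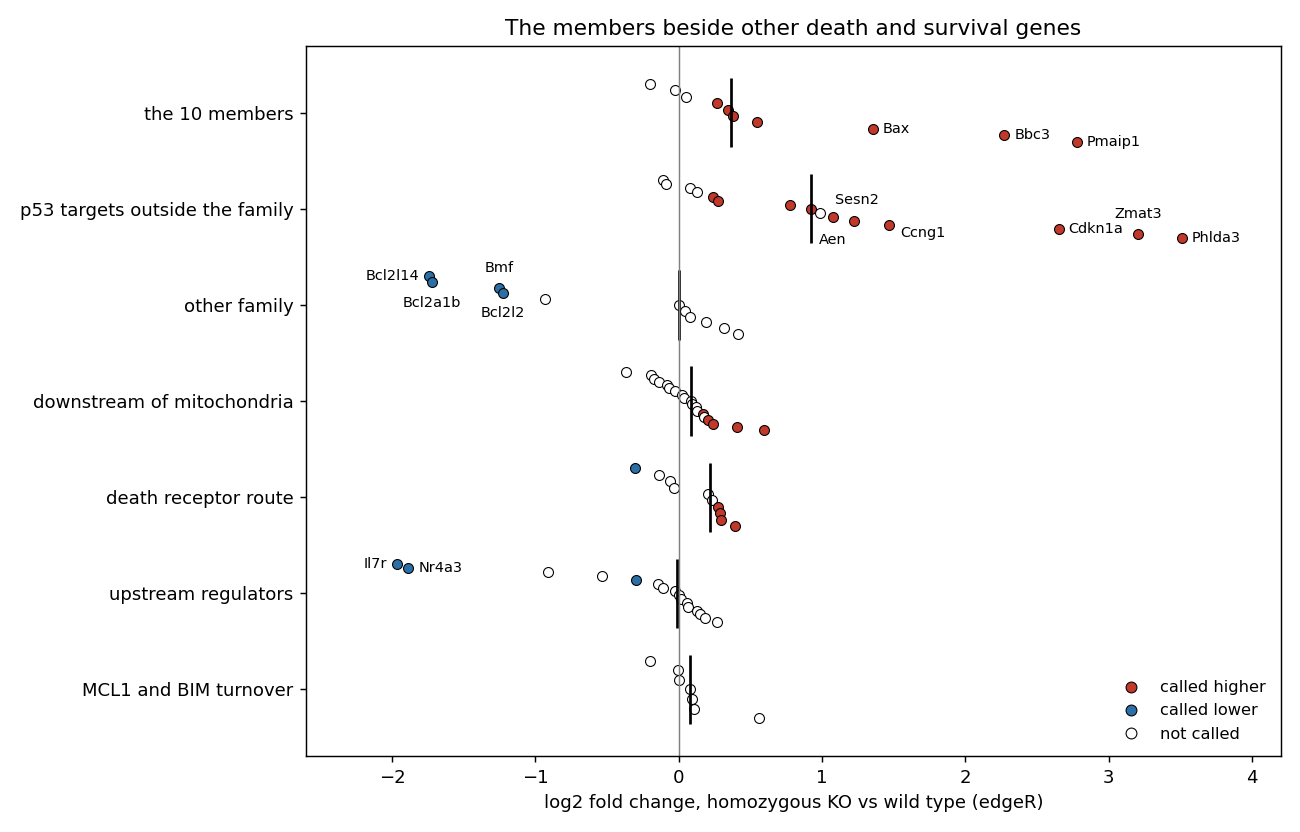
Log2 fold change of homozygous KO against wild type (x axis) for the 10 members and for the tested genes of 6 further lists (rows), filled where called, with a black line at the median of the genes drawn. Eda2r is not drawn since its wild-type libraries held almost no reads. Calls among the members and the p53 targets lie to the right of 0, and those among the other family genes to the left.

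Genes with the most similar pattern over the 10 libraries were looked up for Bcl2, Bcl2l1 and Bcl2l11 among 9845 genes by Pearson's r of log2 CPM. The libraries share genotype and animal number blocks, so r is a description only. Bcl2 was most like Nmnat1 (r = 0.95), Sec14l1 (0.91) and Plac8 (0.91), none of which was called in homozygous KO against wild type. Bcl2l1 was most like Taf3 (0.98), Leo1 (0.98) and Dip2c (0.97), which were each called higher (log2 0.24, 0.42 and 0.65). Bcl2l11 was most like Ripk1 (0.98), the kinase gene of the death receptor list, Kdm3a (0.96) and Rnf185 (0.95).

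Some counts could include reads of a neighbour, as the sources do not say whether HTSeq used the strand. In the GENCODE annotation, exons of Bcl2 overlap those of the antisense gene D630008O14Rik, those of Bak1 overlap Ggnbp1, those of Bid overlap Bcl2l13 and those of Bad overlap Gpr137, each on the opposite strand. Bax shares exons with a predicted gene on its own strand. The exons of Bcl2l1, Mcl1, Bcl2l11, Bbc3 and Pmaip1 overlapped no other annotated gene.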

How the data were processed

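Total RNA from mouse thymus was depleted of ribosomal RNA and sequenced as stranded libraries, per the labels. The authors deposited raw read counts per gene for the 10 libraries, without normalization. The submitters' processing notes name CASAVA, STAR 2.4.1d, HTSeq 0.6.1p1 and the mouse builds NCBIM37 and mm9, while the study's methods describe a BWA-based pipeline with HTSeq. The annotation release and the strand setting are not given in the sources used here.

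Columns were matched to samples by the animal and library numbers in the titles, and the genotype was taken from the title. For the wild types with a single wt word the column name adds "het", and the genotype of the title stood. Symbols came from a GENCODE annotation of GRCm38, which may differ from the annotation used for counting. It matched 30204 of 34467 Ensembl identifiers. The 908 further features without such an identifier (1.74% to 2.29% of counts) stayed in the library totals. Where they passed the filter, they also stayed in the scaling and the tests. Exon lengths came from the same annotation. Promoter windows of chromosome 18, where Pmaip1 lies, were not used here.

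Differences were tested with edgeR 4.0.16 in R 4.3.3 (TMM, filterByExpr, glmQLFit, glmQLFTest), in a fit over all 10 libraries with genotype as the term. P-values were adjusted by Benjamini-Hochberg over all 19511 tested genes, and a gene was called under 0.05. All 10 members passed the filter on low counts. The standard error is the absolute log2 fold change divided by the square root of F. Single members were also compared by an exact two-sided permutation of libraries. Alternatives included DESeq2 1.42.0, other scalings, no filter, blocks by replicate or animal number, Xist as a covariate, subsets of wild types and each library left out. The edgeR steps were tested on simulated data. Totals per library were 39.8 to 122 M counts, and floors cover counting error only. Nothing states that replicates were processed separately beyond being different animals.

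The members, lists and tests were chosen with earlier results of these data known. All members are named. Other lists give counts and up to 4 called genes of largest change whose log2 CPM averaged 0 or more, plus each tested gene of the remaining family. Lists were written from general knowledge, and no set test was run. The values of 1 called gene of the wider lists are not reported here.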

Additional observations from a re-analysis of the deposited data

Results flagged for a closer look

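Of 37 genes looked at, 4 had a wild-type library far from the other 3, by the gap to the nearest library over the range of the group (Dixon's test at the 95% level), a test that chance alone flags in about 1 of 20 groups. For Bcl2l1 the fourth wild type stood at 284 CPM, where the others were between 240.2 and 241 CPM. That library also had the lowest Bcl2l2 level, 4.99 CPM against 5.67 to 5.78, and the lowest Tradd level, 11.2 CPM against 13.3 to 13.6. It is the wild type with an animal number above 51. For Eda2r the second wild type held the only read of its group, 1 count (0.0241 CPM), below the floor of 3 counts. With the other wild types at 0, any single read would be flagged, so this flag carries no information.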

How the results depend on the processing

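Against wild type, Bax, Bbc3, Pmaip1 and Bid kept their calls in homozygous KO in all 17 alternatives, Bcl2l1 in 16, Bcl2l11 in 8 and Bad in 5. With only the wild types of a single wt word, 2670 genes and 4 members were called in place of 5030 and 7. In heterozygous KO against wild type, DESeq2 called 58 genes and 1 member, and leaving out single libraries gave 2 to 6 genes in place of 3. In homozygous against heterozygous KO, 2153 to 2990 genes were called with a library left out, the fewest without heterozygous KO 3, against 3342. Library totals alone moved the split of higher and lower calls from 2446 and 2584 to 1435 and 3506 in homozygous KO against wild type, and from 1489 and 1853 to 856 and 2330 against heterozygous KO. Causes were not tested.

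Replicate numbers did not pair the libraries: over 9 same-numbered pairs, correlations of deviations ran from -0.10 to 0.23, and 3 exceeded 0.1. With the replicate block, 5 genes and no member were called in heterozygous KO against wild type. In homozygous KO against wild type it called 4934 of 19511 tested genes and 6 members, without Bad (adjusted p = 0.0855). In homozygous against heterozygous KO it called 3293 genes and 6 members.

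Uncalled log2 fold changes near 0 turned their sign. In homozygous KO against wild type, Mcl1 (-0.03) was 0.031 with Xist, 0.080 with the replicate block and 0.13 with wild types of 2 wt words, and -0.12 to 0.098 with a library left out. Library totals gave Bak1 -0.044, Bcl2l13 -0.014 and Bnip3l -0.050. Bnip3l was -0.057 with the animal-number block and -0.031 to 0.12 with a library left out. Bok was 0.0027 with DESeq2, 0.0036 with RLE factors, 0.19 with Xist, 0.043 with wild types of 1 wt word, and -0.23 to 0.19 with a library left out. In heterozygous KO against wild type, leaving out libraries gave Bcl2 -0.11 to 0.034, Bcl2l1 -0.0080 to 0.084, Bak1 -0.031 to 0.031, Bax -0.079 to 0.061, Bcl2l11 -0.14 to 0.030 and Bid -0.0028 to 0.058. The animal-number block gave Bcl2l1 -0.029 and Mcl1 -0.082. Wild types of 1 wt word gave Bcl2l1 -0.042, Mcl1 -0.023 and Bak1 0.010. Xist, the replicate block and wild types of 2 wt words gave Bcl2l11 0.0026, 0.026 and 0.055 and Bid -0.051, -0.0029 and -0.0058. In homozygous against heterozygous KO, library totals gave Bak1 -0.025.

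With the longest transcript as length, wild-type levels were 7.40 for Bcl2, 98.0 for Bcl2l1, 23.9 for Bax, 25.0 for Bcl2l11, 19.2 for Bid and 7.92 CPM per kilobase for Bad. Groups of 3 and 4 animals, an uneven spread of sexes and animal numbers and unknown cre status limit each comparison.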
